A study of Mus musculus with 6 samples.

Results

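Interferon-stimulated genes are genes whose transcription rises when a cell receives an interferon signal, and their levels were compared across the 4 genotypes of the regulatory T cell arrays described here. The set was a list of 41 gene symbols. A symbol was used where a probe set of the array was listed with that gene alone, and where a gene had several probe sets the one with the highest mean over all 6 arrays was kept. This gave 38 genes of the 18194 genes with a probe set, 23 of them with 1 probe set and 15 with more. The probe set of Isg15 was listed with several genes, and no probe set was listed under Ly6a or Ifi44, so these 3 were not analysed here. All 38 measured members passed the filter on dim genes, which left out the lowest 25% of genes by their mean over all arrays.

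The cells were regulatory T cells (Treg cells) sorted from C57BL/6 mice, a CD4 T cell type that holds immune responses in check. The groups were 2 arrays of wild type cells (WT), 2 of cells without Foxo1 (the knockout, Foxo1KO), mice carrying the constitutively active form Foxo1AAA (1 array), and knockout mice that also carried Foxo1AAA (Foxo1KO/Foxo1AAA, 1 array). Foxo1 is a forkhead transcription factor that is held outside the nucleus after phosphorylation by Akt. The comparisons ask which transcripts differ without Foxo1 and whether they return towards WT when the active form is present in the knockout. The age of the animals, which part of the gene was deleted, the promoter or Cre line behind either allele and the number of animals behind each array are not given in the sources used here.

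Interferon signals reach the nucleus by 2 routes. Type I interferons act through Stat2 and Irf9 at the interferon-stimulated response element (ISRE), and interferon gamma acts at the gamma-activated site (GAS) and induces Irf1. The first route is known for antiviral effectors such as the Mx, Oas and Ifit families, and the second for the large GTPases, the immunoproteasome and peptide transport for major histocompatibility complex (MHC) class I. In Treg cells interferon gamma is also known as a cytokine that such cells can make themselves under inflammation.

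The promoters of 5 members are shown because they carry the letters of one or both routes and because their genes behaved differently on the arrays. Each run is the 250 bases before a RefSeq transcription start in GRCm38.p6, written 5′ to 3′ on the strand of the gene. Capitals mark the core of the ISRE, searched as GAAA, any 2 bases and GAAA again, or the core of the GAS, searched as TTC, any 3 bases and GAA, on either strand. On the opposite strand an ISRE core reads TTTC, any 2 bases and TTTC. The Irf1 promoter lies at chr11:53769764-53770013 on the plus strand and has a GAS at bases 90 to 82 before the start. The Igtp promoter lies at chr11:58199306-58199555 on the plus strand, with a GAS at bases 45 to 37 and an ISRE core at bases 34 to 25. The Gbp2 promoter lies at chr3:142620413-142620662 on the plus strand, with an ISRE core on the opposite strand at bases 59 to 50. The Bst2 promoter lies at chr8:71537473-71537722 on the minus strand, with a GAS at bases 136 to 128 that overlaps the first of 2 overlapping ISRE cores at bases 130 to 121 and 124 to 115. The Ifit1 promoter lies at chr19:34640639-34640888 on the plus strand, with ISRE cores on the opposite strand at bases 104 to 95 and 85 to 76.
Irf1: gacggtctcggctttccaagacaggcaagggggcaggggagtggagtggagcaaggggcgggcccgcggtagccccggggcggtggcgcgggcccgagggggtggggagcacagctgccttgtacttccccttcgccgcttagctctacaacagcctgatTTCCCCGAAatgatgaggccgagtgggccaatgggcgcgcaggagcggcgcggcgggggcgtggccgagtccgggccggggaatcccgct
Igtp: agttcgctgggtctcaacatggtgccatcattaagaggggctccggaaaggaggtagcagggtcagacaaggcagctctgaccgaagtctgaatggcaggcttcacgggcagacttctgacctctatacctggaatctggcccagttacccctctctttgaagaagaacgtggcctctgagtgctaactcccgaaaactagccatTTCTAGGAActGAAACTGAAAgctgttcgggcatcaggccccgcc
Gbp2: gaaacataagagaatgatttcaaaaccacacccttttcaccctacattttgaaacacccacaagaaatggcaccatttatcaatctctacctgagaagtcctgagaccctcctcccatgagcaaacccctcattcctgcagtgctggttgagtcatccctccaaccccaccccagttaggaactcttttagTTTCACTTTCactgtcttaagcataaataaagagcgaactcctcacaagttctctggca
Bst2: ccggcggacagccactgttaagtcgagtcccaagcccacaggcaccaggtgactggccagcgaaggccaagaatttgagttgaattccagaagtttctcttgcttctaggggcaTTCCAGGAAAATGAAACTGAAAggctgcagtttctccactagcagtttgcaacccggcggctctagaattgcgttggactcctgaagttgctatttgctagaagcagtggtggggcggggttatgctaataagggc
Ifit1: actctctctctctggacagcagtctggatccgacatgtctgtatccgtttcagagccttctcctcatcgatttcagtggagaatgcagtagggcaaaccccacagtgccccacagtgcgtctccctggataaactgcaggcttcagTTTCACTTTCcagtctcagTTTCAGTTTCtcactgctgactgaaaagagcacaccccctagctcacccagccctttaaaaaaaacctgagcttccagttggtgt

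The RefSeq table held 34 promoters of 27 of the 38 measured members, some genes having several starts, and 32851 promoters in all. An ISRE core was found in 11 of the 34 member promoters and in 2.98% of all promoters of the same length. The genes with an ISRE core were Bst2, Gbp2, Gbp3, Igtp, Irgm1 and Oas3, which rose in Foxo1KO cells, and Ifit1, Ifit3, Rsad2, Stat2 and Trim30a, which were not called changed there. A GAS was found in 6 of the 34 member promoters, those of Bst2, Igtp, Irf1, Isg20 and Psmb8, which rose, and of Ifit2, which was not called. It was found in 7.02% of all promoters. The forkhead letters GTAAACA were found on either strand in 2 member promoters, those of Gbp3 and Rsad2, and in 3.17% of all promoters. A match describes these letters only.

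Values below are log2 levels after robust multi-array averaging (RMA), so a log2 difference of 1 is a fold of 2, and levels of different genes are not set against each other because each probe set has its own scale. Differences were tested with limma in 1 model over all 6 arrays, and a gene was called higher or lower at an adjusted p (Benjamini-Hochberg over 13645 tested genes) under 0.05. Only WT and Foxo1KO have replicates, which leaves 2 residual degrees of freedom, and the fit takes the spread of both lone arrays with Foxo1AAA to be the same. The labels do not give replicates as separate mice, but the Y-linked Eif2s3y given below differed between the replicates of each group. The replicates of a group therefore did not hold material of the same animals alone. The number of animals behind each array is not known, and p-values cover only the spread among these arrays. Array number limits the precision.

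The label check and the makeup of the samples bear on all results. Of 9 Treg and T cell markers with a probe set, Ikzf2 (13.26 to 13.63), Ctla4 (12.29 to 13.06) and Cd3d (13.19 to 13.60) were bright on every array. The probe set of Foxp3 was dim on all 6 (5.10 to 5.58), and its mean lay below the filter. Of the 8 tested, 1 was called higher and 2 lower in Foxo1KO against WT (-0.70 to 0.46), beside 21.8% of all genes called. In Foxo1KO/Foxo1AAA against Foxo1KO 2 were higher and 1 lower (-0.34 to 0.75), beside 39.8%. The Foxo1 probe set read 11.03 and 11.35 in WT and 10.87 and 10.65 in Foxo1KO, a difference of -0.43 (SE 0.13, adjusted p = 0.0448) that was not called in 6 alternative settings, for example without WT replicate 2 (-0.27, adjusted p = 0.237). Whether it lies in the deleted part is not known, so it does not check the labels. Markers of myeloid cells were higher on the arrays with Foxo1AAA, with summed linear levels over 13 markers of 13711 and 16115 against 1874 and 2199 in WT and 3765 and 2801 in Foxo1KO. Over 10 B and plasma cell markers the sums were 15519 and 13377 with Foxo1AAA, 6479 and 7368 in WT and 6424 and 4521 in Foxo1KO. Over 5 erythroid markers they were 1238 and 903, 359 and 431, and 395 and 357 in the same order. None of these markers is at 0, since RMA gives every probe set a level above 0, and in bulk samples fewer cells of a type and less RNA per cell cannot be told apart. The transcript Xist, made from the inactive X chromosome of females, read 12.03 to 13.43 on the WT and Foxo1KO arrays and 6.04 and 6.27 on the arrays with Foxo1AAA, while the Y-linked Eif2s3y read 3.91 and 10.09 in WT, 4.05 and 9.91 in Foxo1KO, and 10.59 and 10.56 with Foxo1AAA. Sex and Foxo1AAA therefore cannot be told apart, whereas the WT and Foxo1KO arrays with the same number were alike in these genes. The replicates of each group differed in Eif2s3y, so the spread between replicates includes a difference in sex make-up.

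**Figure D1:**
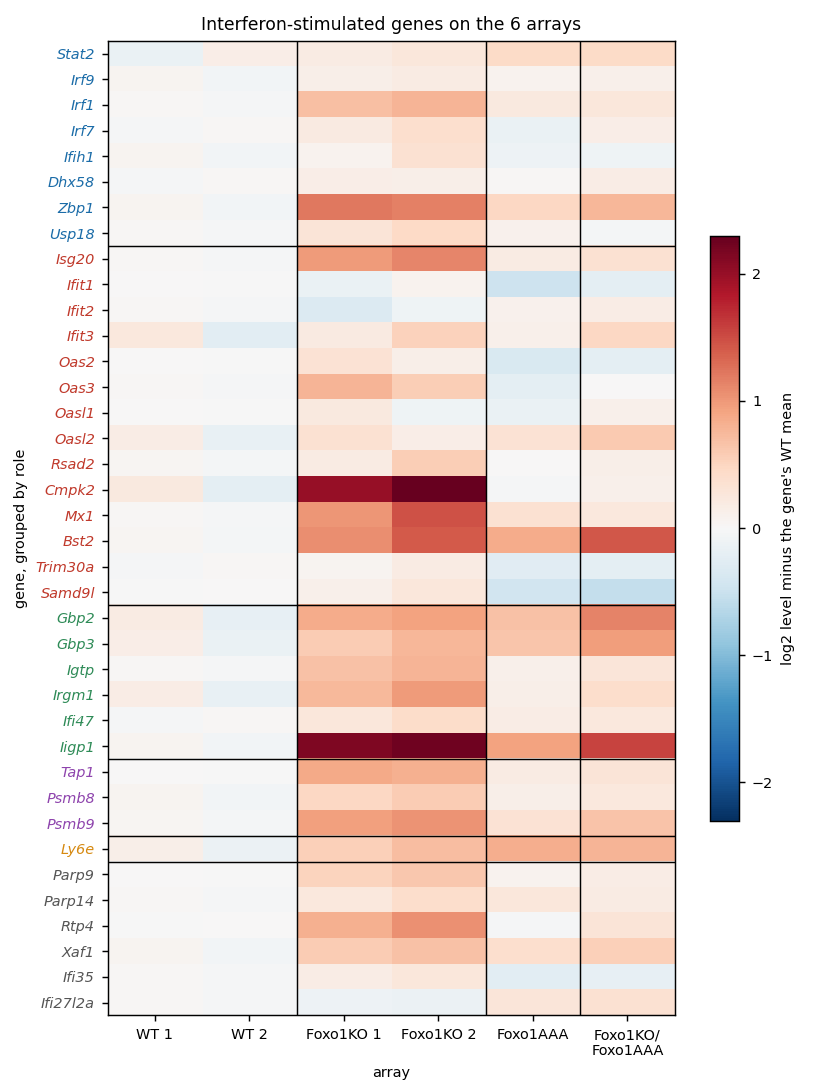
Each row is 1 of the 38 interferon-stimulated genes, ordered by role, each column is 1 array, and colour gives the log2 level minus the mean of the WT arrays. The Foxo1KO columns are highest for Iigp1 and Cmpk2, whereas the rows of Ifit1 and Ifi27l2a are close to WT in Foxo1KO.

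Foxo1KO Treg cells had more transcript of 21 of the 38 interferon-stimulated genes than WT cells, and 0 were called lower by limma (24 had an unadjusted p under 0.05 in either direction). Across all tested genes 21.8% were called, 11.2% higher and 10.7% lower. The median member differed by 0.45 log2 units, and the median of all tested genes by 0.03. The GTPases induced by interferon gamma rose as a whole group (6 of 6), as did the 3 antigen processing genes, whereas 9 of 14 antiviral effectors were not called. The largest rises were those of Iigp1 (4.59-fold) and Cmpk2 (4.46-fold). Markers of other cells moved in the same comparison, and of 9 tested B and plasma cell markers 2 were called higher and 1 lower. Called higher were also 4 of 11 tested myeloid markers, 4 of 8 dendritic cell markers and 4 of 7 CD8 T and NK cell markers. Their summed linear levels ranged from 1183 to 1436 in WT and from 2011 to 3803 in Foxo1KO for dendritic cells, and from 725 to 732 and 1600 to 1672 for CD8 T and NK cells. The part of such cells in the results below was not tested.

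Among the GTPases, Iigp1, an immunity-related GTPase that is loaded onto the vacuoles of intracellular pathogens, read 11.04 and 10.90 in WT and 13.12 and 13.22 in Foxo1KO. The groups were far apart compared with the gap between replicates, with a log2 difference of 2.20 (SE 0.10, adjusted p = 3.22e-06), and a second probe set of the gene gave 2.67. Igtp, a relative that works at the same vacuoles, read 12.48 and 12.43 in WT and 13.13 and 13.25 in Foxo1KO, a rise of 0.73 (SE 0.10, adjusted p = 0.000712). Irgm1, which steers those GTPases away from the membranes of the cell itself, read 10.98 and 10.66 against 11.56 and 11.80 (0.86, SE 0.13, adjusted p = 0.00178). In both genes the lowest Foxo1KO array lay above the highest WT array. Here and below such separation of arrays is a description only. Its share over all tested genes was not counted, so it adds no support to a call.

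Gbp2, a guanylate-binding protein that coats pathogen vacuoles, read 11.51 and 11.14 in WT and 12.17 and 12.25 in Foxo1KO, 1.84-fold higher (SE 0.13 on the log2 scale, adjusted p = 0.00141). Its relative Gbp3 read 10.91 and 10.61 against 11.35 and 11.52 (0.68, adjusted p = 0.00438). The brighter Gbp2 probe set is of a class whose probes can match other transcripts of a family, and the dimmer Gbp2 probe set rose by a similar 0.81. Ifi47 was the smallest rise of the group, from 12.99 and 13.06 to 13.28 and 13.44 (0.33, adjusted p = 0.0446), and its call was lost in 8 of 13 alternatives, where adjusted p reached 0.204.

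The antigen processing genes supply peptides to MHC class I. Psmb9, a catalytic subunit of the immunoproteasome, read 11.23 and 11.15 in WT and 12.14 and 12.22 in Foxo1KO, 1.99-fold higher (SE 0.09 on the log2 scale, adjusted p = 0.000116). Tap1, a chain of the transporter that carries peptides into the endoplasmic reticulum, read 11.42 and 11.40 against 12.27 and 12.23 (0.84, adjusted p = 0.00025). Psmb8, another immunoproteasome subunit, read 12.68 and 12.55 against 13.10 and 13.20 (0.53, adjusted p = 0.00517). In these 3 genes the gap between replicates was at most 0.13, smaller than the gap between the groups. With all 4 Tap1 probe sets averaged, 3 of which are far dimmer, the Tap1 difference was 0.37 (adjusted p = 0.0127).

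Of the 8 sensors, transcription factors and feedback genes 3 were called higher. Irf1, the transcription factor whose GAS is shown above, read 11.59 and 11.52 in WT and 12.25 and 12.34 in Foxo1KO, 1.66-fold higher (SE 0.09 on the log2 scale, adjusted p = 0.000664). Zbp1, a sensor of left-handed nucleic acids that can start cell death, read 9.12 and 9.002 against 10.28 and 10.22 (1.18, SE 0.10, adjusted p = 5.1e-05). For both genes the Foxo1KO arrays were high and did not overlap the WT arrays. Usp18, which removes the Isg15 protein from its targets and dampens the type I receptor, read 9.46 and 9.40 against 9.73 and 9.88 (0.38, adjusted p = 0.0257). That call was lost with a block for replicate number and without WT replicate 1, WT replicate 2 or Foxo1KO replicate 2, with adjusted p from 0.0559 to 0.137.

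The factors that carry the type I signal were not called, although Irf7 was called higher with the lowest 50% of genes left out (adjusted p = 0.0494) and after repeated quantile normalization (0.0351). Stat2 read 6.81 and 7.12 in WT and 7.15 and 7.23 in Foxo1KO, a difference of 0.23 with a 95% interval from -0.05 to 0.50. Irf9, which joins Stat2 on the ISRE, differed by 0.16 (-0.06 to 0.38), and Irf7, an amplifier of type I interferon production, by 0.29 (0.06 to 0.52, adjusted p = 0.0751). The RNA sensors Ifih1 (0.22, -0.04 to 0.48) and Dhx58 (0.15, -0.06 to 0.36) were not called either. These intervals leave room for rises of up to 0.52, so they do not show equal levels.

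The antiviral effectors split. Cmpk2, a mitochondrial nucleotide kinase, read 8.73 and 8.29 in WT and 10.51 and 10.83 in Foxo1KO (2.16, SE 0.16, adjusted p = 3.19e-05). Its second, dimmer probe set gave 0.42, and with the Cmpk2 probe sets averaged the difference was 1.29, so its size depends on the probe set. Mx1, a GTPase known for blocking influenza virus and defective in many laboratory strains, read 6.85 and 6.81 against 7.85 and 8.29 (1.24, SE 0.14, adjusted p = 0.000307). Bst2, or tetherin, which holds budding virions on the cell surface, read 7.63 and 7.56 against 8.67 and 9.002 (1.24, SE 0.12, adjusted p = 0.000151). Isg20, an exonuclease of single-stranded RNA, read 10.10 and 10.05 against 11.04 and 11.19 (1.05, SE 0.10, adjusted p = 0.000107). Oas3, a synthetase whose product activates RNase L, read 5.99 and 5.94 against 6.74 and 6.54 (0.67, adjusted p = 0.00178). All 5, chosen here as called higher, had their lowest Foxo1KO array above their highest WT array, a separation not counted over all tested genes.

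The other 9 effectors were not called, among them genes whose promoters hold ISRE cores. Ifit1, an RNA-binding protein that blocks translation of viral RNA, read 9.42 and 9.39 in WT and 9.26 and 9.48 in Foxo1KO, so the groups overlapped, and the difference was -0.03 with a 95% interval from -0.27 to 0.21. Ifit2 differed by -0.21 (-0.45 to 0.03). Ifit3 differed by 0.37 (-0.01 to 0.75), with WT arrays at 9.08 and 8.60, and was called without WT replicate 1. The synthetase Oas2 differed by 0.23 (adjusted p = 0.152), and the related Oasl1 and Oasl2 by 0.07 and 0.25. Trim30a, a ubiquitin ligase of the TRIM family, differed by 0.12 and Samd9l, an inhibitor of viral translation, by 0.20.

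Rsad2 and Cmpk2 are neighbours on chromosome 12 with 0 coding genes between them. Rsad2, also called viperin, makes a nucleotide that stops viral RNA synthesis and uses a substrate that Cmpk2 supplies. It read 8.89 and 8.82 in WT and 9.05 and 9.42 in Foxo1KO, a difference of 0.38 with a 95% interval from 0.09 to 0.67 (adjusted p = 0.0685), against 1.79 to 2.52 for Cmpk2. Rsad2 was called higher in 4 of 13 alternatives, with adjusted p from 0.0203 without Foxo1KO replicate 1 (0.56) to 0.0473 with a mean-variance trend in the prior, and differed by 0.20 without Foxo1KO replicate 2 (adjusted p = 0.316). The other Rsad2 probe sets gave 0.33 and 0.45. The Rsad2 and Cmpk2 intervals do not overlap, although the dimmer Cmpk2 probe set (0.42) lies inside that of Rsad2. On chromosome 17 Psmb9, Tap1 and Psmb8 lie next to one another and all 3 rose, whereas Oas2 and Oas3, neighbours on chromosome 5, differed by 0.23 and 0.67.

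Of the remaining members, Ly6e, a small lipid-anchored surface protein, read 11.59 and 11.31 in WT and 12.00 and 12.16 in Foxo1KO (0.63, adjusted p = 0.00565). A second Ly6e probe set differed by 0.14, and without Foxo1KO replicate 2 the Ly6e call was lost (0.55, adjusted p = 0.0508). Rtp4, a chaperone of G protein-coupled receptors, read 11.21 and 11.24 against 12.04 and 12.28 (0.94, adjusted p = 0.000334). Parp9, of the ADP-ribosyltransferase family, rose by 0.56 (adjusted p = 0.00294) and Xaf1, an antagonist of the apoptosis inhibitor XIAP, by 0.63 (adjusted p = 0.00184). Parp14, Ifi35 and Ifi27l2a were not called, with differences of 0.32 (adjusted p = 0.0544, and 0.0196 to 0.0371 in 3 alternatives that called Parp14 higher), 0.21 and -0.12.

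**Figure D2:**
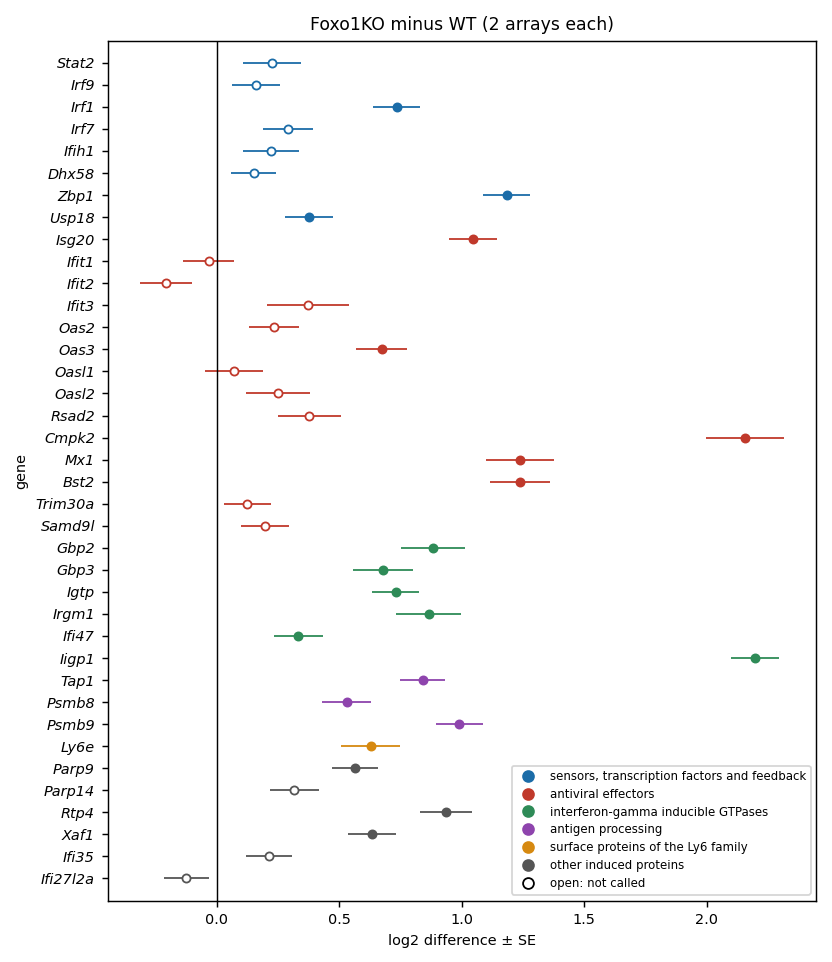
Points give the log2 difference of Foxo1KO minus WT for each of the 38 genes with its SE, coloured by role and filled where called at adjusted p under 0.05. The filled points number 21 and all lie above 0, with Iigp1 (2.20) and Cmpk2 (2.16) farthest out, while Ifit1 (-0.03), Ifit2 (-0.21) and Ifi27l2a (-0.12) lie below 0 and are open.

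In knockout cells that also carried Foxo1AAA, 18 of the 38 genes were called lower than in Foxo1KO and 2 higher. Across all tested genes 39.8% were called, 20.2% lower and 19.6% higher. With each array centred on its median 21 members were called lower and 0 higher, beside 33.7% and 12.4% of all tested genes. That centring took the median of all genes from -0.02 to -0.19, here and in the comparison of Foxo1AAA with WT. The median member differed by -0.31, or -0.48 after centring. The calls fell in every role but the Ly6 family: 3 of 8 sensors and factors, 7 of 14 effectors, 3 of 6 GTPases, 2 of 3 antigen processing genes and 3 of 6 others. This comparison and the one above share the Foxo1KO arrays. Among 11 tested myeloid markers 10 were higher in the same comparison, Csf1r by 3.56. Of 8 dendritic cell markers 7 were higher and 1 lower, and of 9 B and plasma cell markers 4 were higher and 1 lower. The part of such cells in the differences was not tested.

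With Foxo1AAA in the knockout Cmpk2 read 8.62 against 10.51 and 10.83, a difference of -2.05 (SE 0.19, adjusted p = 0.000128) to within its WT values of 8.73 and 8.29. Averaged over both Cmpk2 probe sets the difference was -1.04, since the dimmer one differed by -0.03. Mx1 read 7.07 against 7.85 and 8.29, a difference of -1.002 (SE 0.17, adjusted p = 0.00257). Isg20 read 10.41 against 11.04 and 11.19, a difference of -0.70 (adjusted p = 0.00261), and Oas3 read 5.97 against 6.74 and 6.54, a difference of -0.67 (adjusted p = 0.00407). In each of the 4 the lone array lay below both Foxo1KO arrays.

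For Iigp1, Zbp1, Irf1, Tap1 and Rtp4 the lone array lay between the WT and the Foxo1KO arrays, as it did for Mx1 and Isg20 above and for Igtp, Irgm1, Psmb9 and Parp9 below. Iigp1 read 12.53, below the Foxo1KO arrays at 13.12 and 13.22 (a difference of -0.64, adjusted p = 0.00419) and above the WT arrays at 11.04 and 10.90. Zbp1 read 9.83 (a difference of -0.42, adjusted p = 0.0228) between 9.12 in WT replicate 1 and 10.22 in Foxo1KO replicate 2. The second Zbp1 probe set differed by 0.02, and the Zbp1 call was lost with the probe sets averaged (-0.20, adjusted p = 0.191) and without Foxo1KO replicate 1 (adjusted p = 0.0794). Irf1 read 11.82 (a difference of -0.47, adjusted p = 0.0127), Tap1 11.71 (a difference of -0.54, adjusted p = 0.00613) and Rtp4 11.53 (a difference of -0.63, adjusted p = 0.00604). The second, dim Rtp4 probe set differed by 0.55 in the other direction, so the Rtp4 fall rests on the bright one and was -0.04 (adjusted p = 0.798) with both averaged.

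The remaining falls were smaller. Igtp fell by 0.45, Irgm1 by 0.46, Psmb9 by 0.33, Parp9 by 0.39 and Usp18 by 0.42, with adjusted p from 0.016 for Igtp to 0.0496 for Irgm1. Without Foxo1KO replicate 2 none of these 5 was called (adjusted p from 0.0592 for Igtp to 0.178 for Irgm1), Irgm1 was not called without Foxo1KO replicate 1 either (adjusted p = 0.0524), and Psmb9 was not called without any 1 of the 4 replicates (adjusted p from 0.0627 to 0.134). Samd9l, Oas2, Trim30a and Ifi35 had not been called in Foxo1KO against WT (differences of 0.20, 0.23, 0.12 and 0.21, that of Ifi35 called with a mean-variance trend in the prior at adjusted p = 0.0418) and were called lower with Foxo1AAA. Samd9l read 11.09 against 11.78 and 11.92 in Foxo1KO and 11.64 and 11.66 in WT, a difference of -0.75 (adjusted p = 0.00183). Oas2 read 7.28 against 7.82 and 7.63 (a difference of -0.45, adjusted p = 0.021), and its call was lost without Foxo1KO replicate 1 (adjusted p = 0.0867). Trim30a fell by 0.34 (adjusted p = 0.0464), a call lost without any 1 of the 4 replicates (adjusted p from 0.0591 to 0.14). Ifi35 fell by 0.40 (adjusted p = 0.0234, and 0.0784 without Foxo1KO replicate 2), but the other Ifi35 probe sets differed by 0.14 and 0.16, and averaged they gave -0.04 (adjusted p = 0.796).

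Of the genes that rose in Foxo1KO, 4 read higher still with Foxo1AAA, though none was called. Bst2 read 9.02 with Foxo1AAA in the knockout against 8.67 and 9.002 without it, a difference of 0.19 with a 95% interval from -0.15 to 0.53. Gbp2 read 12.46 against 12.17 and 12.25 (0.25, -0.11 to 0.61), and its second probe set rose by 0.47 (adjusted p = 0.022). Gbp3 read 11.73 against 11.35 and 11.52 (0.29, -0.05 to 0.63), and Ly6e 12.23 against 12.00 and 12.16 (0.16, -0.18 to 0.49). The second Ly6e probe set went the other way (-0.33), and averaged over both the Ly6e difference was -0.09 (adjusted p = 0.629). For these 4 genes the lone array was above both Foxo1KO arrays, and the intervals include 0. The 2 genes called higher were Ifit2 (0.39, adjusted p = 0.0432) and Ifi27l2a (0.47, adjusted p = 0.0109), which had not been called in Foxo1KO against WT, and neither was called after centring (0.21 for Ifit2 and 0.30 for Ifi27l2a). Ifit2 was not called without Foxo1KO replicate 1 (0.27, adjusted p = 0.163).

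**Figure D3:**
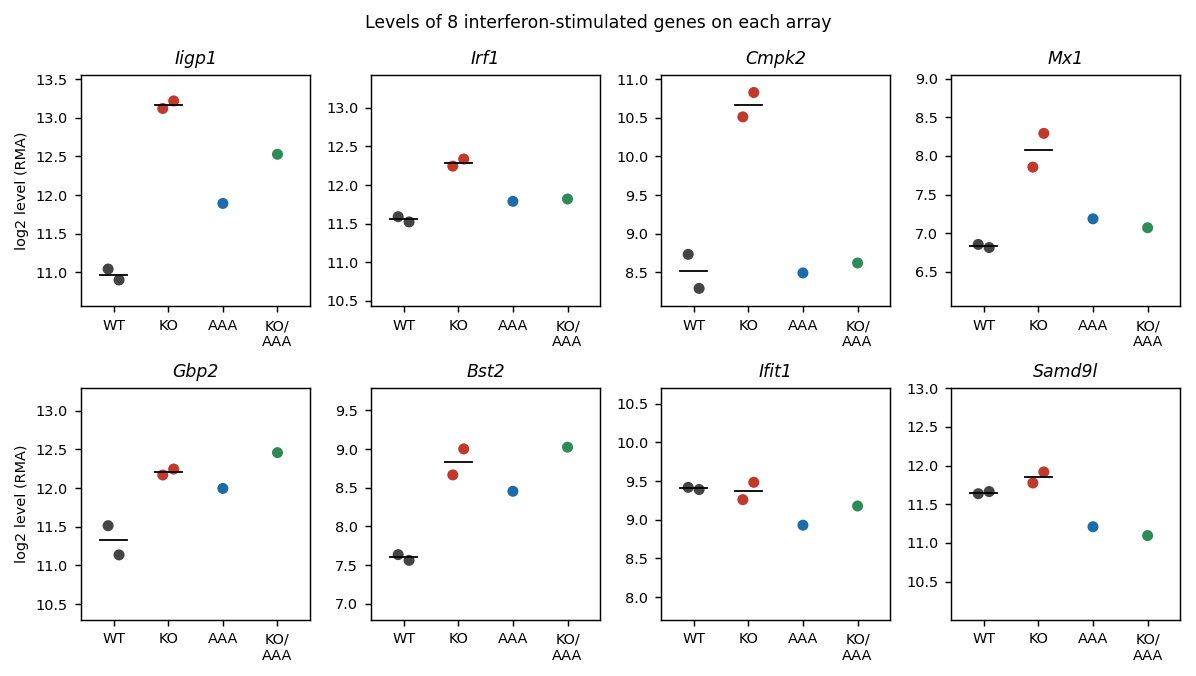
Each panel shows 1 gene, with a point for each array by group and a bar at the mean of the WT and Foxo1KO pairs; every panel spans the same 3 log2 units. Cmpk2 and Mx1 stand highest on the Foxo1KO arrays, Iigp1 lies between Foxo1KO and WT when Foxo1AAA is present, Gbp2 and Bst2 are highest on the Foxo1KO/Foxo1AAA array (12.46 and 9.02), and Ifit1 and Samd9l are lowest with Foxo1AAA.

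In cells with Foxo1AAA and intact Foxo1, 9 members were called changed against WT and 29 were not. Of all tested genes 27.5% were called in either direction, so the members were called no more often than all genes. Against WT, 7 members were called higher and 2 lower, where 13.4% of all tested genes were higher and 14.1% lower (8.5% and 27.9% with each array centred on its median). The median member differed by 0.13, and by -0.04 after centring, so the direction of the set as a whole depends on the scaling. Iigp1 read 11.89 against 11.04 and 10.90 in WT, 1.89-fold higher (SE 0.12 on the log2 scale, adjusted p = 0.00128). Bst2 read 8.45 against 7.63 and 7.56 (0.86, adjusted p = 0.00486) and Ly6e 12.28 against 11.59 and 11.31 (0.83, adjusted p = 0.00502). Gbp2 read 12.00 (0.67, adjusted p = 0.0159) and Gbp3 11.40 (0.64, adjusted p = 0.0151), both above their WT arrays. These 5 were called after centring as well, with differences of 0.75 for Iigp1, 0.69 for Bst2, 0.66 for Ly6e, 0.51 for Gbp2 and 0.48 for Gbp3. Of 11 tested myeloid markers 11 were higher in the same comparison, Csf1r by 3.34, and 7 of 8 dendritic cell markers, whose summed linear levels were 8976 and 9877 with Foxo1AAA. Of 9 tested B and plasma cell markers 6 were higher and 1 lower. The part of such cells in the rises was not tested.

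Zbp1 (0.47, adjusted p = 0.0195) and Xaf1 (0.39, adjusted p = 0.0408) were also called higher, but neither after centring (0.31 and 0.23). Without WT replicate 2 both calls were lost (adjusted p = 0.0772 for Zbp1 and 0.155 for Xaf1), and that of Xaf1 also without either Foxo1KO replicate (adjusted p = 0.0542). Averaged over its probe sets Xaf1 differed by 0.12 (adjusted p = 0.46). The genes called lower were Ifit1, at 8.93 against 9.42 and 9.39 (-0.48, adjusted p = 0.0268), and Samd9l, at 11.21 against 11.64 and 11.66 (-0.44, adjusted p = 0.0259). Without WT replicate 1 neither was called, with adjusted p of 0.0582 for Ifit1 and 0.052 for Samd9l, and without WT replicate 2 neither was (0.0519 and 0.0736). Cmpk2, at 8.49, and Rtp4, at 11.20, differed from WT by -0.02 each.

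**Figure D4:**
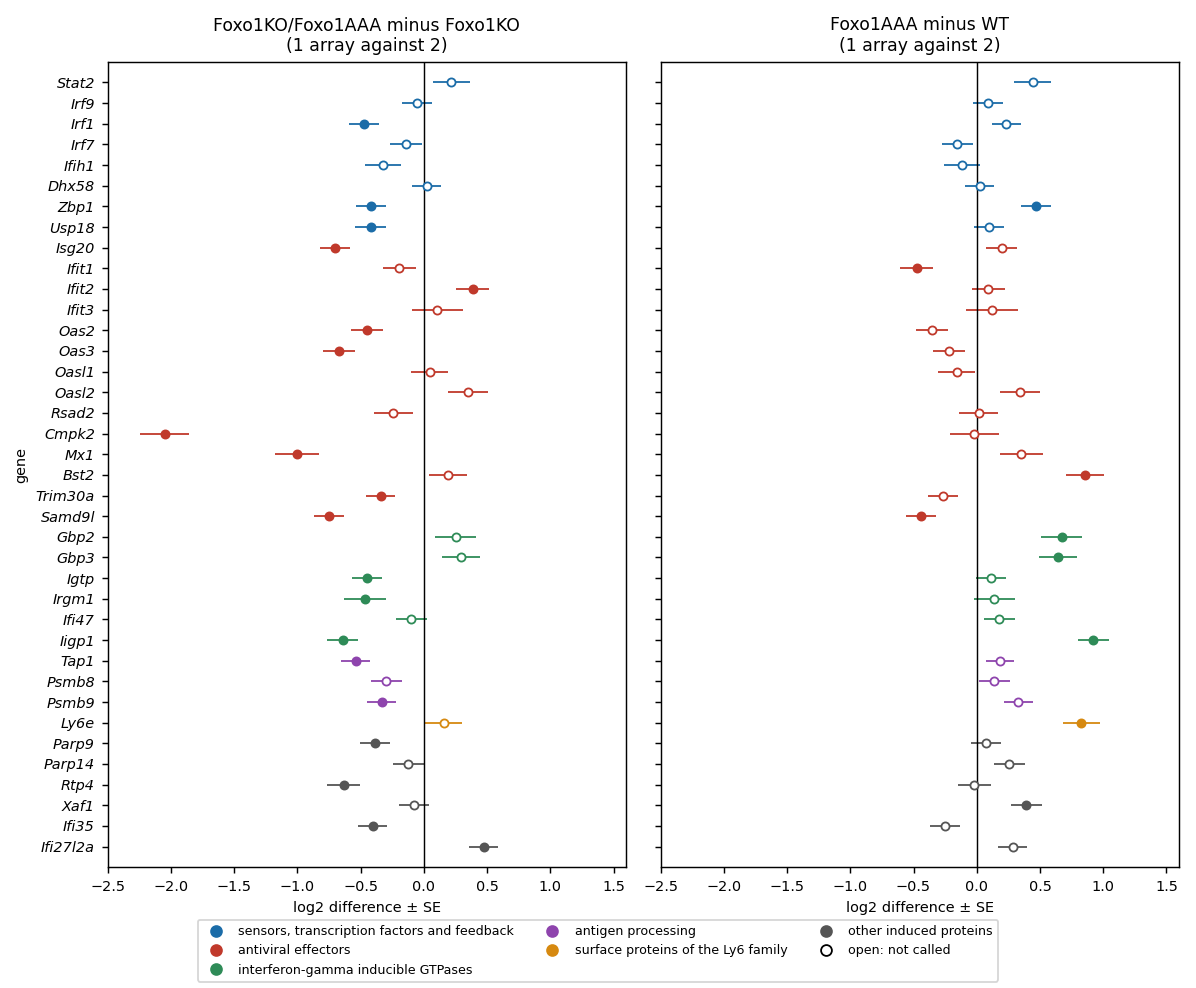
Points give the log2 difference with its SE of the 38 genes for Foxo1KO/Foxo1AAA minus Foxo1KO (left) and Foxo1AAA minus WT (right), filled where called at adjusted p under 0.05. On the left 18 filled points lie below 0 and 2 above (0 above with each array centred on its median); on the right 7 lie above 0 and 2 below, and the median member changes sign with that centring (0.13 to -0.04).

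Compared with WT, knockout cells with Foxo1AAA had 11 members called higher and 1 lower, against 17% and 13.7% of all tested genes, 30.7% in all (10.4% and 33.5% with each array centred). The median member differed by 0.24, and by 0.03 after centring, which took the median of all genes from -0.02 to -0.22. This comparison shares its arrays with the ones above. The largest differences were those of Iigp1 (1.56, SE 0.12, adjusted p = 5.15e-05), Bst2 (1.43, SE 0.15, adjusted p = 0.000283), Gbp2 (1.13, SE 0.16, adjusted p = 0.00134) and Gbp3 (0.97, SE 0.15, adjusted p = 0.0022). Ly6e (0.78), Zbp1 (0.77), Psmb9 (0.66), Oasl2 (0.60), Xaf1 (0.55), Stat2 (0.44) and Ifi27l2a (0.35) followed. Of these, Stat2, Oasl2 and Ifi27l2a were not called after centring (0.24, 0.40 and 0.15), and Oasl2 was not called without WT replicate 2 (0.43, adjusted p = 0.0737) nor Stat2 without WT replicate 1 (0.29, adjusted p = 0.185) or without either Foxo1KO replicate (adjusted p = 0.0699). Ifi27l2a was not called without any 1 of the 4 replicates (adjusted p from 0.0599 to 0.15), and neither Ly6e (0.30, adjusted p = 0.142) nor Xaf1 (0.34, adjusted p = 0.0502) was called with its probe sets averaged. Samd9l fell by 0.56 (adjusted p = 0.00971).

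Set directly against each other, the arrays with Foxo1AAA with and without endogenous Foxo1 differed in 0 of 38 members by limma at an adjusted p under 0.05, where 0.0733% of all tested genes were called, 0.066% higher and 0.00733% lower (4 members had an unadjusted p under 0.05). Both groups are lone arrays. The 4 were Iigp1 at 12.53 against 11.89 (0.64, adjusted p = 0.149), Bst2 at 9.02 against 8.45 (0.57, adjusted p = 0.292), Gbp2 at 12.46 against 12.00 (0.46, adjusted p = 0.434) and Psmb9 at 11.85 against 11.52 (0.33, adjusted p = 0.447). All 4 were higher where endogenous Foxo1 was missing. With a mean-variance trend in the prior Iigp1 was called (adjusted p = 0.0448).

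The interaction contrast, the knockout difference with Foxo1AAA minus the knockout difference without it, was called below 0 for 7 of 38 members and above 0 for 0 by limma, where 3.14% and 2.81% of all tested genes were called (18 members had an unadjusted p under 0.05). The 7 were Cmpk2, Iigp1, Mx1, Isg20, Zbp1, Tap1 and Irf1. For Cmpk2 the knockout difference was 2.16 without Foxo1AAA and 0.13 with it, for Mx1 1.24 and -0.12, for Isg20 1.05 and 0.15, for Tap1 0.84 and 0.11 and for Irf1 0.73 and 0.03. For Zbp1 it was 1.18 and 0.30, and for Iigp1 2.20 and 0.64. The contrasts of Cmpk2, Mx1 and Iigp1 were called in all 12 alternatives, although the Cmpk2 contrast was -1.09 averaged over its probe sets. The other 4 lost their calls in some settings. With a block for replicate number the contrasts of Irf1 (adjusted p = 0.0929) and Tap1 (0.0762) were not called, and Tap1 averaged over its probe sets gave -0.34 (adjusted p = 0.21). Without Foxo1KO replicate 2 the contrasts of Irf1 (adjusted p = 0.108), Zbp1 (0.0515), Isg20 (0.0594) and Tap1 (0.0758) were not called, without Foxo1KO replicate 1 those of Irf1 (0.0715), Zbp1 (0.0566) and Tap1 (0.0824) were not, and without WT replicate 2 those of Irf1 (0.0783) and Tap1 (0.0569) were not. For Bst2 (-0.67, adjusted p = 0.121), Gbp2 (-0.42, adjusted p = 0.371) and Ly6e (-0.67, adjusted p = 0.109) it was not called.

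Other genes of the interferon pathways were taken from lists. Of 8 tested ligands and receptors 2 rose and 1 fell in Foxo1KO, and with Foxo1AAA in the knockout 1 was higher and 4 lower than in Foxo1KO. Of all tested genes 21.8% were called in the first of these comparisons and 39.8% in the second, which holds beside the counts of each list below. Ifng, the gene of interferon gamma, read 7.06 and 6.78 in WT, 9.12 and 9.36 in Foxo1KO, 7.16 with Foxo1AAA and 8.34 in Foxo1KO/Foxo1AAA. Its rise in Foxo1KO was 2.32 (SE 0.13), and it fell by 0.90 with Foxo1AAA in the knockout (adjusted p = 0.00275). The lone Foxo1KO/Foxo1AAA array lay between the WT and Foxo1KO arrays. Of its receptor chains, Ifngr1, which binds the ligand, was 0.49 higher in Foxo1KO (adjusted p = 0.0166, lost without Foxo1KO replicate 2 at 0.101). Ifngr2, which carries Jak2, fell by 0.66 (adjusted p = 0.0105). With only the WT and Foxo1KO arrays fitted, Ifngr2 differed by -0.24 (adjusted p = 0.105), because another probe set was then the brighter one, and without Foxo1KO replicate 2 by -0.46 (adjusted p = 0.0621). In Foxo1KO/Foxo1AAA cells Ifngr2 was 1.06 higher (adjusted p = 0.00217), or 0.48 averaged over its probe sets.

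The type I ligands were not called higher. Ifna2 read 6.22 and 6.41 in WT and 6.56 and 6.30 in Foxo1KO, with overlapping groups, and fell by 0.98 with Foxo1AAA in the knockout (adjusted p = 0.00134). The probe sets of Ifnb1 (4.78 to 5.15) and Ifna4 (4.56 to 5.31) lay below the filter on every array, where a change of a dim transcript can go unseen. The type I receptor chains Ifnar1 and Ifnar2 differed by -0.30 (adjusted p = 0.0502) and -0.21 (adjusted p = 0.282) in Foxo1KO. Il10rb, a receptor chain shared with interleukin 10 and interferon lambda, differed by -0.16 and Ifnlr1, the specific chain for interferon lambda, by 0.20, neither of them called. Against Foxo1KO, in the presence of Foxo1AAA, Ifnlr1 fell by 0.74 (adjusted p = 0.00246) and Ifnar2 by 0.48 (adjusted p = 0.0323), and Ifnar2 averaged over its probe sets differed by -0.05 (adjusted p = 0.718).

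Of 9 tested kinases, STATs and IRFs outside the set 3 rose and 2 fell in Foxo1KO. Irf8, a transcription factor that binds the ISRE with partners, read 8.42 and 8.48 in WT, 9.85 and 10.13 in Foxo1KO, 9.04 with Foxo1AAA and 9.18 in Foxo1KO/Foxo1AAA, a rise of 1.53 (adjusted p = 3.22e-05). Irf8 and Bst2 also stand in the list of plasmacytoid dendritic cell markers, whose summed linear level was 2286 to 2308 in WT, 2941 to 3189 in Foxo1KO and 2843 to 2963 with Foxo1AAA. That sum includes Irf8 and Bst2 themselves, so it is no separate measure of such cells. Of the 8 markers in that list 3 were called higher in Foxo1KO, Irf8 and Bst2 among them, and 1 lower. The differences ranged from -0.92 to 1.53, with a median of 0.11. The part of such cells in the Irf8 and Bst2 values was not tested. Irf4, needed for effector Treg cells, fell by 0.74 (adjusted p = 0.00157) and was 1.85 higher with Foxo1AAA in the knockout (adjusted p = 3.18e-05), or 0.91 averaged over its probe sets. The receptor kinase Jak2 rose by 0.53 (adjusted p = 0.00357) and Jak1 fell by 0.45 (adjusted p = 0.0175, lost without WT replicate 2 and without either Foxo1KO replicate, where it reached 0.119). With Foxo1AAA in the knockout Irf8 fell by 0.81 (adjusted p = 0.00262) and Jak2 by 0.83 (adjusted p = 0.000901), whereas Jak1 was 0.55 higher (adjusted p = 0.0118, and 0.0591 after centring).

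Of 7 feedback inhibitors 3 rose and 2 fell. Socs1, which binds the receptor kinases and limits the response to interferon gamma, read 7.37 and 7.51 in WT and 8.13 and 8.30 in Foxo1KO (0.78, adjusted p = 0.000866). It read 7.31 and 7.46 on the arrays with Foxo1AAA, values that overlap those of WT. Socs3, which limits signals through Stat3, rose by 1.02 (adjusted p = 0.000629) and Cish, a target of Stat5, by 0.57 (adjusted p = 0.00305). The phosphatase Ptpn6 fell by 0.58 (adjusted p = 0.00258) and Socs2, another Stat5 target, by 0.33 (adjusted p = 0.0354, lost with a block for replicate number and without any 1 of the 4 replicates, where it reached 0.152). With Foxo1AAA in the knockout 4 of the 7 were lower and 2 higher than in Foxo1KO. Cish fell by 1.02 there and Socs1 by 0.76, while Socs2 was 1.51 and Ptpn6 0.87 higher (0.63 and 0.51 averaged over their probe sets).

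Of 10 tested nucleic acid sensors 1 was called higher and 2 lower in Foxo1KO, beside 11.2% and 10.7% of all genes. The largest difference was that of Tlr7, an endosomal RNA receptor, which fell by 1.24 (adjusted p = 3.76e-05, and by 0.63 averaged over its probe sets). Cgas, which senses DNA in the cytosol, rose by 0.40 (adjusted p = 0.0322) and the kinase Ikbke fell by 0.37 (adjusted p = 0.0187). The Cgas call was lost without WT replicate 2 (adjusted p = 0.17) and without Foxo1KO replicate 2 (0.172), and that of Ikbke without any 1 of the 4 replicates (0.0652 to 0.0869). On the Foxo1KO/Foxo1AAA array Tlr7 was 1.35 higher than in Foxo1KO (0.64 averaged over its probe sets) and Sting1, the adaptor of Cgas, 0.40 higher (adjusted p = 0.0369, and 0.177 after centring). The kinase Tbk1 fell by 0.44 and the RNA sensor Ddx58 by 0.33, and neither was called with its probe sets averaged (adjusted p = 0.226 for Tbk1 and 0.243 for Ddx58).

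Of 12 tested genes of the MHC class I pathway outside the set 6 rose and 0 fell in Foxo1KO by limma (7 had an unadjusted p under 0.05). They were led by Tap2, the partner of Tap1, which rose by 0.81 (adjusted p = 0.0065), the immunoproteasome subunit Psmb10 (0.64, adjusted p = 0.00133), the loading factor Tapbp (0.50, adjusted p = 0.01) and Nlrc5, the transactivator of class I genes (0.46, adjusted p = 0.0129). Fewer of the 12 were called without WT replicate 2 or without Foxo1KO replicate 2, where fewer of all tested genes were called as well. With Foxo1AAA in the knockout 3 of the 12 were lower than in Foxo1KO. Nlrc5 fell by 0.68 and Tapbp fell by 0.41, and the chaperone Calr fell by 0.32. Without Foxo1KO replicate 2 Tapbp (adjusted p = 0.12) and Calr (0.0816) were not called. Pdia3, a chaperone of the loading complex, was 0.58 higher, but differed by 0.07 averaged over its probe sets (adjusted p = 0.689).

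Of 36 further interferon-stimulated genes 14 rose and 3 fell in Foxo1KO, where 11.2% and 10.7% of all genes did. With Foxo1AAA in the knockout 8 of the 36 were higher and 7 lower than in Foxo1KO, with a median difference of 0.02. The largest rises were those of Ifitm1, Ifitm2 and Ifitm3, membrane proteins that block the entry of viruses, whose sequences are alike enough that probe sets may share signal. Ifitm1 read 7.17 and 7.28 in WT, 10.99 and 11.09 in Foxo1KO, 8.20 with Foxo1AAA and 8.99 in Foxo1KO/Foxo1AAA, a rise of 3.82 (SE 0.10, adjusted p = 1.76e-07). Ifitm2 rose by 3.92 and Ifitm3 by 3.77, and with Foxo1AAA in the knockout Ifitm1 fell by 2.05, Ifitm2 fell by 2.41 and Ifitm3 fell by 1.53. Gbp6, a further guanylate-binding protein, rose by 1.21 (adjusted p = 0.000123). The 3 that fell were Slfn1, Slfn2 and Slfn5, named after their values were seen. These Schlafen genes, of which Slfn2 is known for keeping T cells quiescent, differed by -0.98, -0.65 and -1.07, and with Foxo1AAA in the knockout they were 1.30, 0.69 and 1.37 higher than in Foxo1KO. Cxcl9, a chemokine induced by interferon gamma, was highest where Foxo1AAA was present, at 7.86 and 9.07 against 6.10 and 5.97 in WT and 7.17 and 6.76 in Foxo1KO. The summed myeloid level given above was also highest on those arrays, and its part in the Cxcl9 values was not tested.

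**Figure D5:**
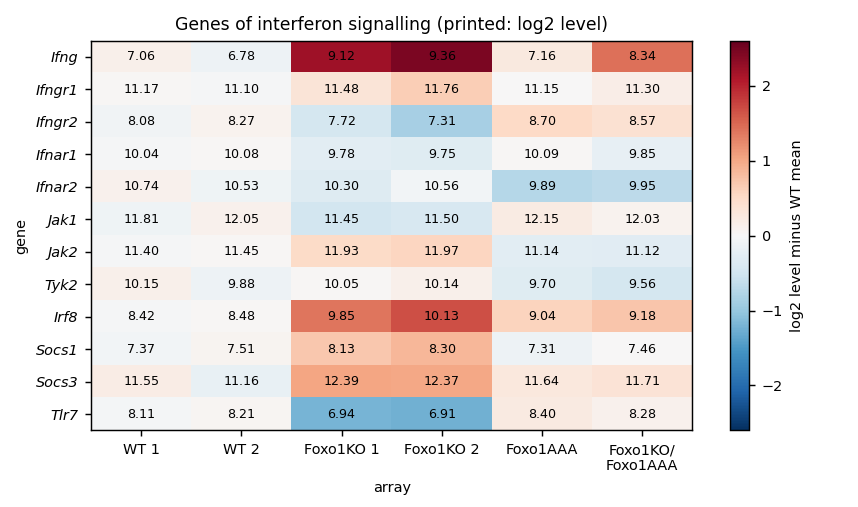
Rows are 12 genes of interferon signalling, columns are the 6 arrays, the printed number is the log2 level and the colour gives the level minus the mean of the WT arrays. Ifng and Irf8 are highest on the Foxo1KO arrays (Ifng 9.12 and 9.36), Tlr7 is lowest there (6.94 and 6.91), and Socs1 on the arrays with Foxo1AAA (7.31 and 7.46) overlaps WT.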

How the data were processed

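Biotin-labelled cRNA from total RNA of sorted Treg cells was hybridised to 6 oligonucleotide arrays. The authors deposited log2 values of 45101 probe sets made with RMA, and R 2.15 and limma 3.12.1 were also used, per the submitters' processing notes. RMA gives arrays nearly 1 shared distribution, so a shift of most transcripts would be hidden, and it flattens very dim and very bright signals. The platform annotation listed 34958 probe sets with 1 gene, 932 with several and 9211 not at all. Groups came from the labels. Genes in the lowest 25% by mean were left out (13645 tested, lowest mean 5.47).

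A linear model on these log2 values was run in R 4.3.3 with limma 3.58.1 (1 coefficient a group, 2 residual and 6.59 prior degrees of freedom, prior SD 0.10), with 5 comparisons and an interaction, two-sided, Benjamini-Hochberg over all tested genes. On simulated data of the Foxo1KO against WT comparison (13645 genes) the fit recovered 21% of 100 genes changed by 0.5 log2 units and 98% of 100 changed by 1. All members were named, and of each pathway list up to 4 called genes with the largest differences in 2 comparisons, plus all ligands and receptors and Socs1. Members and lists were chosen with earlier results of these data known. Marker levels were summed as 2 to the power of the log2 value. Alternatives changed the filter, the probe set rule, the scaling, the variance prior, a replicate block and each replicate in turn. Fitting WT and Foxo1KO arrays alone was added after the data were seen. Promoters came from a RefSeq table of GRCm38.p6 and were searched with Python 3.11.15. No genome, protein table or scanner files were used here.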

Additional observations from a re-analysis of the deposited data

Results flagged for a closer look

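The knockout difference of 17 genes named above was not the same with and without Foxo1AAA by the interaction contrast in limma. Among the members this contrast was -2.03 for Cmpk2 (adjusted p = 0.00546), -1.56 for Iigp1 (0.00242), -1.35 for Mx1 (0.0147), -0.90 for Isg20 (0.0187), -0.89 for Zbp1 (0.0184), -0.73 for Tap1 (0.0333) and -0.70 for Irf1 (0.0421). Those of Isg20, Zbp1, Tap1 and Irf1 lost their calls without single arrays, those of Irf1 and Tap1 also with a block for replicate number and that of Tap1 with its probe sets averaged, as given above.

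Among the other genes of the pathway it was -3.30 for Ifitm3 (adjusted p = 0.000137), -3.04 for Ifitm2 (0.000146), -3.03 for Ifitm1 (0.000124), -1.39 for Irf8 (0.00586), -1.14 for Ifng (0.02), -0.95 for Socs3 (0.0465) and -0.88 for Gbp6 (0.0399). It lay above 0 for Tlr7 (1.11, adjusted p = 0.00699), Irf4 (0.88, 0.034) and Socs2 (0.66, 0.0481). For Ifng the knockout difference was 2.32 without Foxo1AAA and 1.18 with it, so it stayed above 0 in both, whereas for Socs3 it was 1.02 and 0.08. Without Foxo1KO replicate 2 the contrasts of Ifng (adjusted p = 0.0645), Socs3 (0.116), Socs2 (0.0921) and Gbp6 (0.114) were not called. Without Foxo1KO replicate 1 those of Irf4 (0.0702), Socs3 (0.119), Socs2 (0.113) and Gbp6 (0.0713) were not, nor was Socs2 without either WT replicate (0.0869 and 0.0712) or Gbp6 without WT replicate 2 (0.0544). Tlr7 averaged over its probe sets gave 0.28 (adjusted p = 0.353). Each contrast rests on the lone Foxo1AAA and Foxo1KO/Foxo1AAA arrays.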

How the results depend on the processing

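Of the 21 members called higher in Foxo1KO against WT, 18 were called in every alternative, the exceptions being Usp18, Ifi47 and Ly6e, and of the 17 not called 12 were called in none. With 1 replicate left out the median member differed by 0.41 to 0.58 in this comparison. The WT and Foxo1KO arrays alone, an alternative chosen after seeing the data, gave 21 higher and 0 lower calls, beside 11.2% and 10.6% of all tested genes. With Foxo1AAA in the knockout 8 of 20 calls against Foxo1KO held in every alternative: the count of lower calls was 18, and 11 to 16 with 1 replicate left out, and the count of higher calls was 2, but 0 with each array centred on its median, 1 after quantile normalization was repeated and 1 to 2 with 1 replicate left out. Of all tested genes 20.2% were called lower and 19.6% higher in that comparison. The higher share was 12.4% after centring and 14% after repeated quantile normalization. Without either Foxo1KO replicate fewer of all tested genes were called lower or higher. Without either WT replicate slightly more were called lower. For Foxo1AAA against WT 5 of 9 calls held. The 2 lower calls (14.1% of all tested genes) became 5 after centring (27.9%). With 1 replicate left out the median member differed by 0.07 to 0.20. For Foxo1KO/Foxo1AAA against WT 7 of 12 calls held. The 1 lower call (13.7% of all tested genes) became 5 after centring (33.5%) and 2 after repeated quantile normalization (14.9%). The 11 higher calls (17%) became 17 with a mean-variance trend in the prior (18.4%). With that trend 0.198% of all tested genes were called higher for Foxo1KO/Foxo1AAA against Foxo1AAA, where 0.066% were without it. For the interaction 3.77% were called lower with it and 3.14% without it. That lower share was smaller without WT replicate 2 or either Foxo1KO replicate, and larger without WT replicate 1. That trend also gave 1 higher call for Foxo1KO/Foxo1AAA against Foxo1AAA (0 otherwise) and 12 lower calls for the interaction, where the count was 7, and 3 to 8 with 1 replicate left out. Averaging the probe sets of Rtp4 turned its difference of Foxo1AAA against WT from -0.02 to 0.40 (adjusted p = 0.0456); the second probe set is the dim one described above. The cause of the other changes was not tested.

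A fit with the replicate number as a block gave 19 higher and 0 lower calls for Foxo1KO against WT (9.34% and 8.67% of all tested genes). It gave 1 higher and 12 lower for Foxo1KO/Foxo1AAA against Foxo1KO (16.2% and 16.6%). For Foxo1AAA against WT it gave 6 higher and 1 lower (10.7% and 10.5%), and for the interaction 5 lower (2.51%). The labels do not say that the numbers pair arrays, and deviations of same-numbered WT and Foxo1KO arrays from their group means correlated at r = -0.0957 over 13645 genes, which are not independent. The signal over background of dim probe sets limits what can be seen of genes such as Ifna4 and Ifnb1.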
